A study of Rattus norvegicus with 6 samples.

Results

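Cyclins are the regulatory partners of the cyclin-dependent kinases, and 10 cyclin genes out of the 18930 genes in the count table were examined here. They were taken by gene symbol and were the D-type cyclins Ccnd1, Ccnd2 and Ccnd3, the E-type cyclins Ccne1 and Ccne2, the A-type cyclin Ccna2, the B-type cyclins Ccnb1 and Ccnb2, and Ccnf and Ccng2. Each symbol matched 1 row, and all 10 genes passed the filter on low counts that left 11870 genes for testing. The cells were NRK-52E, an established line of rat kidney epithelial cells grown in culture. The Control group held 3 samples of wild-type cells without streptozotocin (STZ), which per the study were given vehicle for 24 h. The STZ group held 3 samples of wild-type cells kept for 24 h in 10 mM of STZ, a sugar-linked agent that alkylates DNA. Nothing in the labels or methods says that the samples of a group came from separate cultures, so p-values measure the spread between these samples, which may be technical.

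The level of a cyclin protein rises and falls with the phases of the cell cycle, and much of that rhythm is set by transcription and by timed destruction through ubiquitin ligases. D-type cyclins respond to growth factors and act with Cdk4 and Cdk6 in G1. E-type cyclins act with Cdk2 at the entry into S phase, Ccna2 acts with Cdk2 and Cdk1 through S and G2 phase, and B-type cyclins act with Cdk1 in mitosis. Ccnf has no known kinase partner and is the substrate-binding part of a ubiquitin ligase in G2 phase, and Ccng2 is an atypical cyclin known from cells that leave the cycle. After DNA damage, p53 raises the inhibitor Cdkn1a (p21), and genes of S phase and mitosis are known to fall through the pocket proteins and the DREAM complex, which binds promoters through E2F sites and the element known as CHR.

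The 4 promoter stretches below were chosen because letters and direction went together in them. Of these genes, 3 (Ccnb1, Ccnb2 and Ccnf) were lower in STZ and carry the letters of the known mitotic promoter elements. Ccng2 was higher and carries none of them. Ccnd3 and Ccne1, which are not printed, differ from this: Ccnd3 was higher and holds a CCAAT box, and Ccne1 was lower and holds no CCAAT. The choice used the outcome, and a link between letters and direction was not tested. The sequences are from RefSeq (GRCr8 build), which held a promoter for 6 of the 10 genes (not Ccna2, Ccnd1, Ccnd2 or Ccne2), and all 4 printed here lie on the minus strand and are written 5′ to 3′. Capitals mark CCAAT, the box bound by NF-Y, and the CHR-type words TTTGAA or TTTAAA. Their positions are chr2:33655226-33655365 for Ccnb1, chr8:79981689-79981798 for Ccnb2, chr10:13783730-13783889 for Ccnf and chr14:15097191-15097330 for Ccng2. The stretches end 1 base before the start for Ccnb1 and Ccng2, 31 bases before it for Ccnb2 and 61 bases before it for Ccnf.
Ccnb1: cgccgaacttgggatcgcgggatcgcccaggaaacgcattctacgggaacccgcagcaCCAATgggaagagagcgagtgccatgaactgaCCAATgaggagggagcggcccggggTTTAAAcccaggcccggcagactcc
Ccnb2: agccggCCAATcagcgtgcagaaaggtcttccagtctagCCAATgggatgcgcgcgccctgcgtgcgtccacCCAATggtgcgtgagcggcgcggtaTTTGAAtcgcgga
Ccnf: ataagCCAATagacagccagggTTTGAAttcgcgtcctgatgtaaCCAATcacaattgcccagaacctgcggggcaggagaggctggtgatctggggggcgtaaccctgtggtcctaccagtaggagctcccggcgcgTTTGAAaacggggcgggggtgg
Ccng2: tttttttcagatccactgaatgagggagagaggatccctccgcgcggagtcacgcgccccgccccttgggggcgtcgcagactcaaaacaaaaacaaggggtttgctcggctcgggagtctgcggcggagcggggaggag

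In the Ccnb2 promoter, 3 CCAAT boxes began 134, 101 and 68 bases before the start, 33 bases apart each time, and TTTGAA followed 43 bases before the start, with another TTTGAA at 214 bases, upstream of the printed stretch. The Ccnb1 promoter held 2 boxes, 32 bases apart, at 82 and 50 bases before the start, and TTTAAA at 25 bases. The Ccnf promoter held 2 boxes at 215 and 175 bases before the start, 40 bases apart, with TTTGAA at 198 and again at 82 bases before the start. Over all 33469 promoters of 300 bases in the table, 37.5% held CCAAT on either strand, 18.3% held TTTGAA and 13.6% held TTTAAA. At least 2 CCAAT boxes together with TTTGAA or TTTAAA were held by 3.07% of all promoters, a combination chosen after these sequences were read. Ccnd3 held 1 CCAAT box, at 132 bases before the start, and Ccne1 held no CCAAT but TTTAAA at 38 bases. These matches are a description of letters and not of bound sites.

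Other words were searched on both strands of the 6 promoters. The E2F-type words TTTCCCGC (in 0.974% of all promoters) and TTTGGCGC (0.493%) and TTTGGCGG (0.466%) and TTTCGCGC (0.326%) had no match in any of the 6. The same held for the CHR variant TTCGAA (1.69% of all promoters), the FoxO-type word TGTTTAC (3.78%), TATAAA (14.2%) and the CRE-type word TGACGTCA (1.83%). The GC-box word GGGCGG, which 33.1% of all promoters held, was found in Ccnd3, Ccne1, Ccnb1, Ccnf and Ccng2 but not in Ccnb2. TTTGAA at 43 bases before the Ccnb2 start does not overlap a CCAAT box, and neither do the CHR-type words of Ccnb1 and Ccnf.

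Total counts ran from 10430924 to 12737131 in Control and from 11658253 to 15191349 in STZ, and the 10 cyclin genes together took 14840 to 18621 reads of a Control sample and 17842 to 23055 reads of an STZ sample. Levels are given as CPM, the count of a gene scaled to the library total and to TMM factors, which lay between 0.988 and 1.02. Transcript lengths were not used, so a level is compared between samples and not between genes. The epithelial label was checked by markers. Krt8 was at 1149 ± 40.7 CPM in Control and 1604 ± 8.05 CPM in STZ (SD, n = 3), while Cdh1 was at 2.58 ± 0.524 and 1.64 ± 0.553 CPM and Krt18 had at most 3 reads in any sample. Of 7 proximal tubule markers matched, Aqp1 alone passed the filter, and the other 6, Lrp2 and Slc34a1 among them, had at most 10 reads in any sample. Endothelial markers (4 matched) had at most 9 reads and leukocyte markers (3 matched) at most 29. Of 6 fibroblast markers matched, 3 passed the filter and were lower in STZ, though Col1a1 lost its call without Control replicate 3 (edgeR adjusted p = 0.0574) or STZ replicate 3 (0.226). The fibroblast list summed to 99.6 to 111 CPM in Control and 56.1 to 66.7 CPM in STZ, led by Col3a1 at 53.9 ± 6.50 and 21.3 ± 2.31 CPM (SD, n = 3), while its members Col1a2, Pdgfra and Lum had at most 4 reads. The 5 epithelial markers matched summed to 1107 to 1181 CPM in Control and 1600 to 1617 CPM in STZ, nearly all of it from Krt8. The proximal tubule list summed to 9.90 to 16.7 CPM in Control and 5.74 to 6.83 CPM in STZ, the endothelial list to 0.455 to 0.754 and 0.800 to 1.13 CPM, and the leukocyte list to 1.09 to 1.98 and 2.17 to 2.54 CPM. The part of these shifts in the cyclin results was not tested.

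With STZ, 3 of the 10 cyclin genes rose, 6 fell and 1 did not pass the test. Ccnd2, Ccng2 and Ccnd3 were higher, while Ccna2, Ccne2, Ccnf, Ccnb2, Ccne1 and Ccnb1 were lower, and Ccnd1 was not called. The test was edgeR's quasi-likelihood test across all genes, called at an adjusted p under 0.05 (Benjamini-Hochberg). Over all 11870 genes 50.9% were called, 25.9% higher and 25.1% lower, so a call by itself was common in this comparison. None of the 10 also had an absolute log2 fold change over 1, which the study's methods require and 3.37% of all genes met. In 9 of the 10 genes, all except Ccnd1, the groups did not overlap, which held for 56.3% of all genes tested. In bulk RNA, fewer cells in a phase and less RNA of a gene per cell cannot be told apart.

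**Figure D1:**
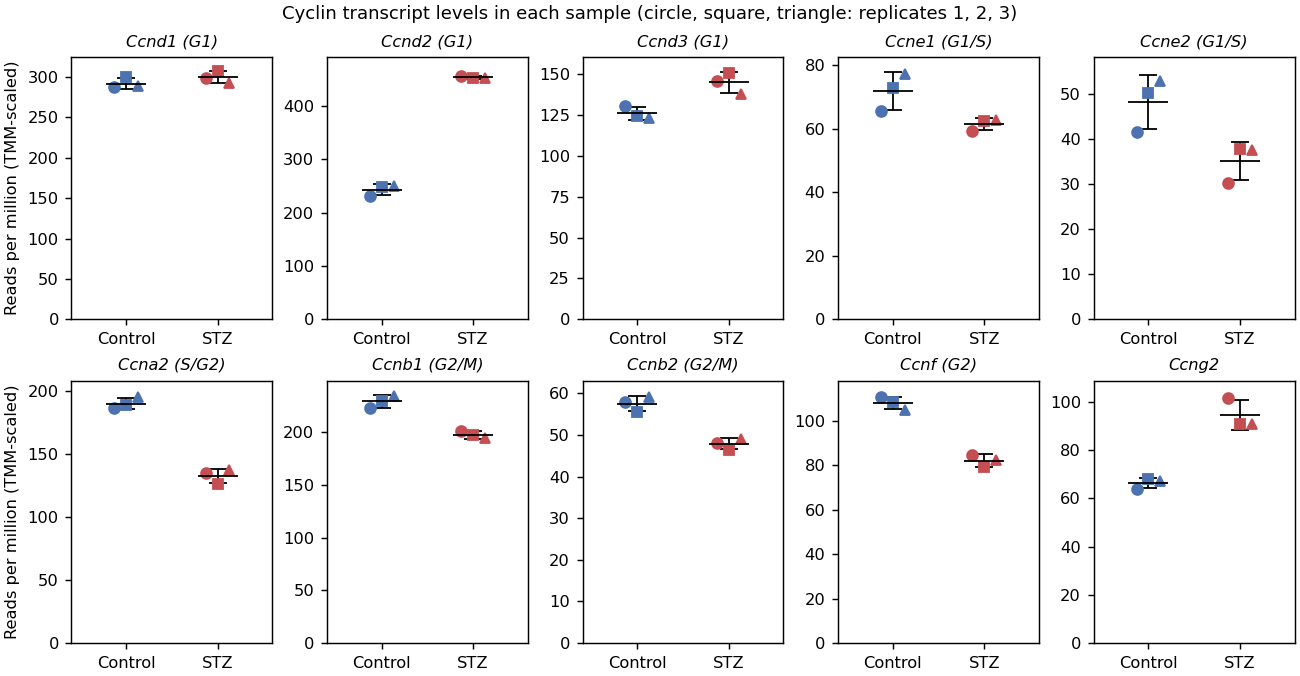
TMM-scaled CPM (y axis, from 0) of each of the 10 cyclin genes in Control (blue) and STZ (red), with 1 point per sample and the mean ± SD (n = 3) in black. Ccnd2 moved from 232 to 249 CPM in Control up to 452 to 457 CPM in STZ, while the ranges of Ccnd1 overlap.

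Among the D-type cyclins, which carry growth signals to Cdk4 and Cdk6, Ccnd2 showed a rise that the others did not match in size. Ccnd2 was at 232, 249 and 249 CPM in Control replicates 1 to 3 and at 457, 452 and 454 CPM in STZ replicates 1 to 3. All STZ samples lay far above all Control samples. The coefficient of variation was 0.585% in STZ and 4.13% in Control, each from 3 samples, and this difference in spread was not tested. The fitted log2 fold change was 0.90 ± 0.04 (SE; edgeR adjusted p = 4e-23), a rise of 86.5%, which ranked 348 from the top among the 11870 genes.

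Ccnd1, the D-type cyclin most often linked to growth factor signalling, was at 287, 299.7 and 288 CPM in Control and at 298.5, 308 and 293 CPM in STZ. The groups overlapped, since Control replicate 2 lay above STZ replicates 1 and 3. Its log2 fold change of 0.04 had a 95% interval of -0.04 to 0.11 (adjusted p = 0.421 by edgeR), whose upper end lay below the interval of Ccnd2 (0.82 to 0.98).

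Ccnd3, the D-type cyclin with the lowest read share here, was at 131, 124 and 123 CPM in Control and at 146, 151 and 138 CPM in STZ. Every STZ sample was above every Control sample, by a small step. The log2 fold change was 0.20 ± 0.04 (SE; edgeR adjusted p = 2.2e-04), a rise of 14.9%. In the GRCr8 annotation the span of Ccnd3 overlaps 2 unnamed long non-coding RNAs, and whether counting used strand is not given in the sources used here, so reads of these genes may not be fully separated.

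The make-up of the D-type reads changed with it. Ccnd2 took 35.7%, 37.0% and 37.7% of the reads of the 3 D-type genes in Control replicates 1 to 3, and 50.7%, 49.6% and 51.3% in STZ replicates 1 to 3. These shares rest on 6889 to 13249 reads per sample, and the exact 95% binomial intervals, which cover counting error only, ran from 34.6% to 38.8% in Control and from 48.7% to 52.2% in STZ. The mean share was 36.8 ± 1.04% in Control and 50.6 ± 0.838% in STZ (SD, n = 3), a difference of 13.7 percentage points (p = 0.1 by the exact two-sided permutation test, the smallest that 3 samples against 3 can give). The share of Ccnd1 went from 44.1 ± 0.442% to 33.3 ± 0.410% and that of Ccnd3 from 19.1 ± 0.921% to 16.1 ± 0.474% (SD, n = 3). For each Ccnd1 read there were 0.808 to 0.865 Ccnd2 reads in Control and 1.47 to 1.55 in STZ. A share within a sample does not depend on how the libraries are scaled. It is formed from the same reads as the single genes above, so its direction and p-value are not separate support for them.

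**Figure D2:**
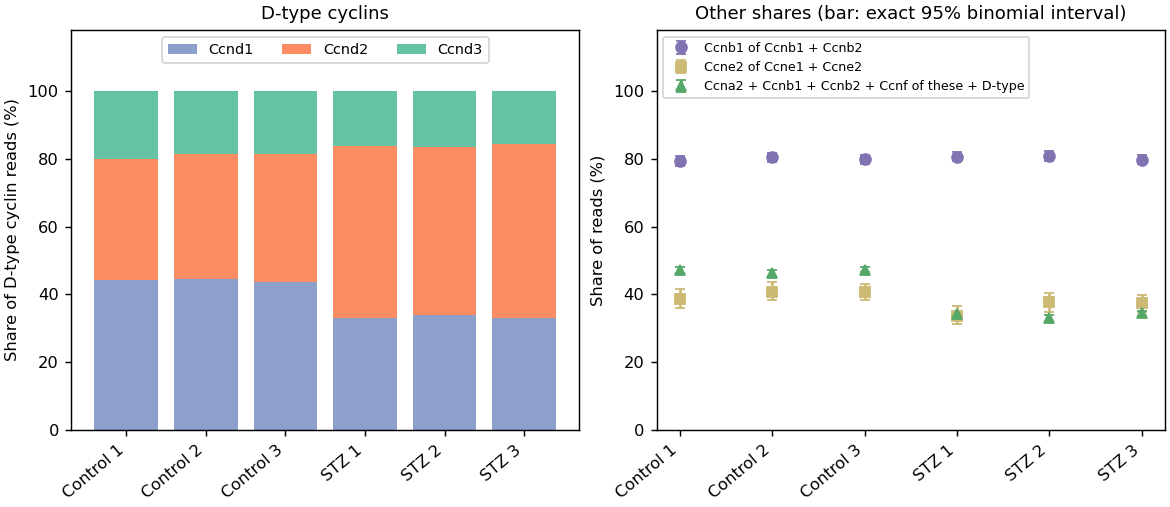
Left, the share of D-type cyclin reads (y axis, percent) taken by Ccnd1, Ccnd2 and Ccnd3 in each of the 6 samples, as stacked bars. Right, other shares (y axis, percent) with exact 95% binomial intervals. Ccnd2 takes 35.7% to 37.7% of D-type reads in Control and 49.6% to 51.3% in STZ, whereas Ccnb1 keeps 79.4% to 80.9% of B-type reads in all samples.

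The E-type cyclins, which switch on Cdk2 at the entry into S phase, were both lower in STZ. Ccne1 was at 65.7, 72.8 and 77.3 CPM in Control and at 59.4, 62.6 and 62.9 CPM in STZ. The highest STZ sample lay just under the lowest Control sample. The log2 fold change of Ccne1 was -0.23 ± 0.06 (SE; edgeR adjusted p = 7.2e-04), and its level fell by 14.6%.

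Ccne2, the second E-type gene, was at 41.5, 50.3 and 52.9 CPM in Control and at 30.2, 37.7 and 37.5 CPM in STZ. Replicate 1 was the lowest of its group in both groups and for both E-type genes. The log2 fold change of Ccne2 was -0.46 ± 0.08 (SE; edgeR adjusted p = 2.2e-06), a level that fell by 27.5%. Its coefficient of variation was 12.4% in Control and 12.1% in STZ, the largest among the 10 genes, and its lowest sample had 416 reads, for which counting alone gives 4.90%. The span of Ccne2 overlaps Ints8 in the GRCr8 annotation. Ints8, a subunit of the Integrator complex looked up for this overlap, was at 93.9 ± 3.17 CPM in Control and 94.0 ± 4.84 CPM in STZ (SD, n = 3), with a log2 fold change of 0.00 (adjusted p = 0.945 by edgeR).

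The reads of the pair also shifted towards Ccne1. There were 1.45 to 1.58 Ccne1 reads for each Ccne2 read in Control and 1.66 to 1.96 in STZ, ranges that do not overlap. The log2 ratio rose by 0.24, from 0.58 ± 0.07 to 0.82 ± 0.14 (SD, n = 3, p = 0.1 by the exact two-sided permutation test, its smallest value). This size rests in part on STZ replicate 1, at 1.96, without which the change in the log2 ratio of Ccne1 to Ccne2 reads was 0.16. The ratio was compared after the values of the single genes were seen.

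Ccna2, the cyclin of S and G2 phase, was lower in every STZ sample. It was at 187, 189 and 195 CPM in Control and at 135, 126 and 137 CPM in STZ. The groups were well apart, and the spread within each was small. The log2 fold change was -0.52 ± 0.04 (SE; edgeR adjusted p = 1.2e-13), and the level fell by 30.1%, ranking 714 from the bottom among the 11870 genes. Its 95% interval (-0.60 to -0.43) overlapped that of Ccne2 (-0.62 to -0.31), and which of the pair fell further changed with the samples used. With 1 sample left out, the log2 fold change of Ccne2 was -0.56 without Control replicate 1 and -0.51 without STZ replicate 2, where the log2 fold change of Ccna2 was -0.53 and -0.48.

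The B-type cyclins, which drive entry into mitosis with Cdk1, fell less than Ccna2. Ccnb1 was at 223, 229.5 and 235 CPM in Control and at 201, 197 and 194 CPM in STZ. Every STZ sample was lower than every Control sample. Its log2 fold change was -0.22 ± 0.04 (SE; edgeR adjusted p = 1.5e-05), and it fell by 13.9%.

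Ccnb2, the B-type cyclin found at the Golgi, was at 57.9, 55.6 and 59.2 CPM in Control and at 48.1, 46.4 and 49.1 CPM in STZ. The groups again did not overlap. Its log2 fold change was -0.26 ± 0.06 (SE; edgeR adjusted p = 1.5e-04), and it fell by 16.7%. Both B-type genes are among those whose promoters, printed above, hold several CCAAT boxes upstream of a CHR-type word.

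The B-type pair moved in step within the precision of these samples. Ccnb1 took 79.4%, 80.5% and 79.9% of B-type reads in Control and 80.7%, 80.9% and 79.8% in STZ. The mean share was 79.9 ± 0.556% in Control and 80.5 ± 0.589% in STZ (SD, n = 3), a difference of 0.561 percentage points that did not exceed the spread between replicates (p = 0.3 by the exact two-sided permutation test). Each share rests on 2801 to 3769 reads.

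Between Ccnb1 and Ccna2 the change was unequal. There were 1.19 to 1.22 Ccnb1 reads per Ccna2 read in Control and 1.42 to 1.56 in STZ. The log2 ratio rose by 0.30, from 0.27 ± 0.01 to 0.57 ± 0.07 (SD, n = 3, p = 0.1 by the exact two-sided permutation test, its smallest value), which was also compared after the single genes were seen.

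Ccnf, the ubiquitin ligase subunit that marks proteins for destruction in G2 phase, was at 111, 108 and 105 CPM in Control and at 84.8, 79.1 and 82.5 CPM in STZ. The STZ samples all lay below the Control samples. The log2 fold change was -0.39 ± 0.05 (SE; edgeR adjusted p = 3.4e-09), and the level fell by 23.8%, more than either B-type cyclin in the fit. Its printed promoter has 2 CCAAT boxes, placed farther from the start than those of Ccnb1 and Ccnb2.

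Ccng2, an atypical cyclin associated with withdrawal from the cycle, went the other way. It was at 63.9, 67.8 and 67.3 CPM in Control and at 102, 90.8 and 91.0 CPM in STZ. STZ replicate 1 was the highest sample, and the lowest STZ sample was still well above the highest Control sample. The log2 fold change was 0.51 ± 0.05 (SE; edgeR adjusted p = 5.9e-11), a rise of 42.4%. For each Ccnf read there were 0.578 to 0.641 Ccng2 reads in Control and 1.10 to 1.20 in STZ, a ratio formed after the single genes were seen.

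**Figure D3:**
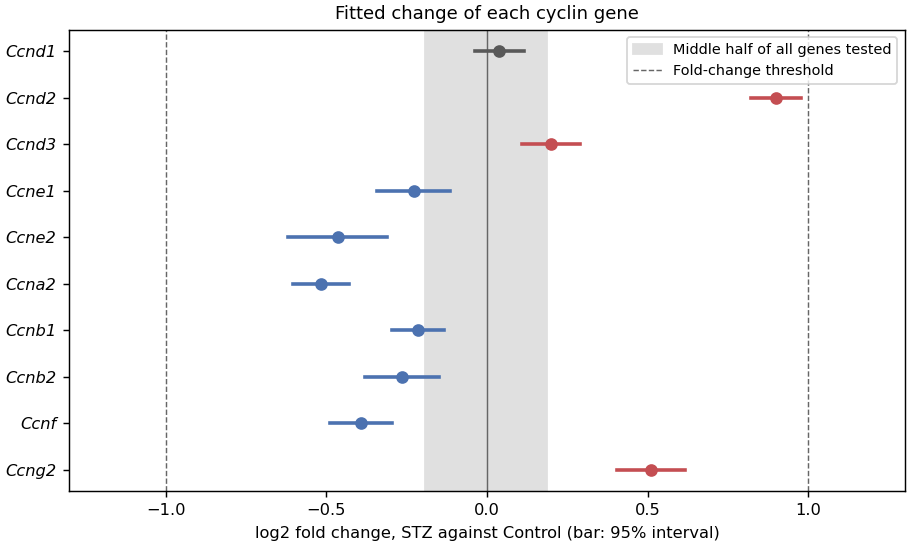
Fitted log2 fold change of STZ against Control (x axis) for the 10 cyclin genes, with 95% intervals; red is higher, blue lower and grey not past an adjusted p of 0.05. All 10 lie inside the fold-change threshold (dashed, ±1), from -0.52 for Ccna2 to 0.90 for Ccnd2, and the grey band spans the middle of all genes tested (quartiles -0.19 and 0.19).

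Across phases, the reads of these genes shifted from S, G2 and M phase cyclins towards D-type cyclins. Ccna2, Ccnb1, Ccnb2 and Ccnf together took 47.1%, 46.4% and 47.3% of the reads of these 4 and the D-type genes in Control, and 34.2%, 33.0% and 34.4% in STZ. The mean was 46.9 ± 0.498% in Control and 33.9 ± 0.742% in STZ (SD, n = 3). Over all 10 genes, D-type reads were 46.2 ± 0.567% in Control and 58.0 ± 0.667% in STZ (SD, n = 3), and Ccnd2 alone was 17.0 ± 0.364% and 29.3 ± 0.166%. The make-up differed between the groups by far more than between replicates, but the genes pooled had already been seen to fall or rise. The direction of these pooled shares thus adds nothing to the single genes. Ccne1 and Ccne2, which also fell, were left out of the first pool. The share of Ccnd2 rose by 12.3 percentage points and that of all D-type genes by 11.8, so Ccnd1 and Ccnd3 together did not add to it.

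Among the kinases that these cyclins activate, Cdk2 and Cdk4 fell. Of 7 kinase and partner genes tested, 2 were higher (Cdk7 and Mnat1, parts of the CDK-activating kinase, with log2 fold changes of 0.24 and 0.25) and 2 lower. Among all genes tested, 25.9% were higher and 25.1% lower. Cdk2, the partner of E-type cyclins and Ccna2, fell from 73.0 ± 2.44 to 57.8 ± 1.56 CPM (SD, n = 3), a log2 fold change of -0.34. The median of the list was -0.05, against -0.01 for all genes tested. The other kinases named here were picked after their values were seen, because they are the direct partners. Cdk4 had a log2 fold change of -0.13 (edgeR adjusted p = 0.0064, but 0.0811 without Control replicate 2 and 0.0521 without STZ replicate 3), Cdk1 of -0.05 (adjusted p = 0.296) and Cdk6 of -0.04 (adjusted p = 0.667). For each Cdk1 read there were 0.743 to 0.801 Ccna2 reads in Control and 0.543 to 0.590 in STZ, and 0.905 to 0.964 Ccnb1 reads in Control and 0.833 to 0.846 in STZ. Per Cdk4 read there were 0.714 to 0.791 Ccnd2 reads in Control and 1.48 to 1.54 in STZ. These ratios to Cdk1 and Cdk4 were formed after the single genes were seen.

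Among the inhibitors of these kinases, 1 of 4 tested was higher and 3 were lower, against 25.9% higher and 25.1% lower over all genes. Cdkn1a, which encodes p21 and binds Cdk2 complexes with E-type and A-type cyclins, rose from 231, 228 and 236 CPM in Control to 1271, 1309.7 and 1312 CPM in STZ, a log2 fold change of 2.49 ± 0.04 (SE; edgeR adjusted p = 1e-39). It was the only gene of this list past both thresholds. Cdkn2d (p19) and Cdkn1b (p27) had log2 fold changes of -0.47 and -0.27. The median of the list, -0.27, was set by the 3 genes that fell.

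Genes that set or remove the inhibitory phosphates on Cdk1 and Cdk2 moved in both directions, with a median log2 fold change of 0.10. Of 4 tested, 2 were higher and 1 lower, against 25.9% higher and 25.1% lower over all genes. Cdc25c, a phosphatase that activates Cdk1 with B-type cyclins, rose from 31.0 ± 1.69 to 42.5 ± 3.09 CPM (SD, n = 3), and Wee1, the opposing kinase, fell from 41.3 ± 1.55 to 32.8 ± 2.19 CPM. Their log2 fold changes were 0.45 and -0.34. Pkmyt1, a further inhibitory kinase, had a log2 fold change of 0.20 with groups that overlapped, and it lost its call without Control replicate 1 (0.13, adjusted p = 0.125 by edgeR) and without STZ replicate 2 (0.15, adjusted p = 0.0981).

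Of 14 genes tested that act in or regulate cyclin ubiquitination, 8 were lower and 2 higher, against 25.1% lower and 25.9% higher over all genes. The median log2 fold change was -0.15, against -0.01 for all genes. The list holds regulators of either sign, Fbxo5 among the lower genes, so the count gives no direction of cyclin removal. Cdc20, which directs the anaphase-promoting complex to B-type cyclins, fell from 344 ± 7.63 to 246 ± 7.58 CPM (SD, n = 3), a log2 fold change of -0.49. Skp2, an F-box protein of S phase, fell from 45.8 ± 2.97 to 29.4 ± 0.946 CPM, a log2 fold change of -0.64. Ambra1, which directs the destruction of D-type cyclins, rose, with a log2 fold change of 0.38. Fbxw7, which recognises phosphorylated cyclin E and was picked after its values were seen, also rose, from 10.3 ± 1.32 to 16.9 ± 0.289 CPM (SD, n = 3, log2 fold change 0.71).

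Of the factors known to transcribe or repress cyclin genes, 10 of 23 tested were lower and 5 higher, with a median log2 fold change of -0.11. Over all genes tested, 25.1% were lower and 25.9% higher. E2f8, an atypical E2F repressor, fell from 55.7 ± 5.01 to 29.8 ± 1.20 CPM (SD, n = 3), a log2 fold change of -0.90. Rbl1, the pocket protein p107, and Nfyc, a subunit of the factor that binds CCAAT, had log2 fold changes of -0.53 and -0.43. After their values were seen, Rb1, Mybl2 and E2f7 were looked up as well. Rb1, the retinoblastoma protein, was higher by 0.43 and Mybl2, which acts at mitotic promoters, by 0.27 on the log2 scale. E2f7 was lower, with a log2 fold change of -0.75.

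Other genes of the cyclin family included 2 higher and 4 lower of 11 tested, with a median log2 fold change of 0.09. Over all genes, 25.9% were higher and 25.1% lower. Ccng1, the relative of Ccng2 and a known p53 target, rose from 411 ± 15.8 to 1297 ± 36.9 CPM (SD, n = 3), a log2 fold change of 1.66 (adjusted p = 4.6e-33 by edgeR), and was the only one past both thresholds. The rise of Ccng2, at 0.51, was thus smaller than that of Ccng1. Ccny and Ccnyl1, a related pair of membrane-linked cyclins, moved apart, with log2 fold changes of -0.25 and 0.29.

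The lists of S-phase and of G2 and M phase markers hold none of the 10 cyclin genes, and over all genes 25.1% were lower and 25.9% higher. Of 31 S-phase markers tested, 16 were lower and 3 higher, with a median log2 fold change of -0.12 (14 to 16 lower with a sample left out), and Pcna, Usp1 and Nasp had the smallest p, at -0.73, -0.69 and -0.52. Of 35 G2 and M phase markers, 24 were lower and 7 higher, with a median of -0.20. With a sample left out, 21 to 25 were lower, and the median was -0.25 without Control replicate 2. Mki67 and Smc4, at -0.67 and -0.49, fell, but Ckap2, a spindle protein, rose from 115 ± 2.61 to 222 ± 2.63 CPM (SD, n = 3), a log2 fold change of 0.95. The shifts of Ccnb1 and Ccnb2, at -0.22 and -0.26, lay near the median of the G2 and M phase markers, while those of Ccna2 and Ccnf lay lower. No comparison of these lists with other genes was tested.

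**Figure D4:**
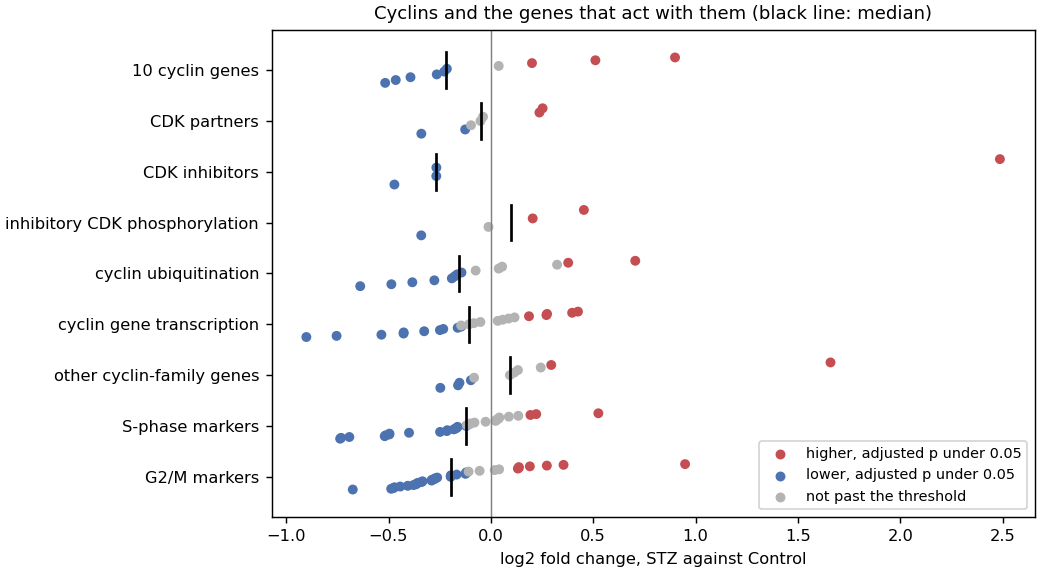
Log2 fold change of STZ against Control (x axis) for each gene tested in the 10 cyclin genes and in 8 lists of genes that act with them or mark a phase; red is higher, blue lower and grey not past an adjusted p of 0.05, and black lines are medians. Cdkn1a at 2.49 and Ccng1 at 1.66 stand to the right of all other genes shown.

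Genes whose levels followed a cyclin most closely were found by Pearson's r of log2 CPM over the 6 samples, given as a description only, since samples of the same treatment move together. For Ccna2 these were Rxrb, Phf6 and Hnrnpa3, with r of 0.999 each and log2 fold changes of -0.36, -0.43 and -0.43. For Ccnb1 they were Scd2, Senp1 and Pgk1 (r of 0.998 each), with log2 fold changes of -0.28, -0.27 and -0.24. For Ccng2 they were Zfp105, Rraga and Tdrkh (r of 0.998, 0.998 and 0.998), with log2 fold changes of 0.24, 0.24 and 0.74; the call of Zfp105 was lost with DESeq2 (adjusted p = 0.0535). Ccnd1, which was not called, was followed by Fam110a and Fhl3 (r of 0.986 and 0.974), neither of which passed the test.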

How the data were processed

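RNA of NRK-52E cells (3 Control and 3 STZ samples) was sequenced by the authors from TruSeq stranded mRNA libraries as single-end reads, mapped to the rat genome (Rnor6) with STAR 2.7.10a and counted with featureCounts of Subread, per the labels and methods. The deposited values are raw counts of uniquely mapped reads, without normalization. From them, TMM scaling, filterByExpr at its defaults and the quasi-likelihood test of edgeR 4.0.16 (R 4.3.3) were computed across all genes. Standard errors (SE) were derived from the fold change and the F statistic. Shares and ratios were taken from raw counts. The steps were tested on simulated counts.

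The cyclin genes and the lists were chosen with earlier results of these data known. The genes named are the 10 cyclins, the 3 genes with the smallest p in each list, any past both thresholds, and the 3 genes most correlated with Ccnd1, Ccna2, Ccnb1 and Ccng2, and cell type markers; others are marked as picked later, and 1 gene under this rule is not reported here. Alternatives were 2 filters, 3 scalings, DESeq2 1.42.0, limma-voom (limma 3.58.1), a replicate block and each sample left out.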

Additional observations from a re-analysis of the deposited data

How the results depend on the processing

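The calls among the 10 cyclin genes (3 higher, 6 lower, none past both thresholds) were the same under all 14 alternatives, and in all 140 refits of single cyclin genes the direction and the side of the adjusted p-value threshold were kept. Ccnd1 ranged from 0.00 to 0.06 on the log2 scale and Ccnd2 from 0.86 to 0.92. With the replicate block, 3 were higher and 6 lower. Same-numbered Control and STZ samples had correlations of deviations of 0.0385, -0.0253 and 0.124 over 10137 genes. With 3 samples per group, such values cannot tell whether same-numbered samples shared a culture or batch. The Ccnd2 share of D-type reads differed by 13.2 to 14.2 percentage points with a sample left out, and the Ccnb1 share of B-type reads by 0.3 to 0.895. Scaling moved the median of all genes by at most 0.03 (to lower values) on the log2 scale.

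The refits of genes outside the 10 were added after seeing the data. For Ints8, near 0 throughout, the log2 fold change reversed to -0.0289 under library size only and -0.0145 under the upper quartile, and ranged from -0.0395 (without STZ replicate 3) to 0.0286 with a sample left out. Of 741 refits of other named genes, 12 lost the call, for Cdh1 (5, -0.44 to -0.72), Pkmyt1 (2), Cdk4 (2), Col1a1 (2, -0.22 and -0.13) and Zfp105 (1). Ccne2 had the fewest reads of the 10 cyclin genes (416 to 679).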

Other observations

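Some genes that act beside well-counted ones had almost no reads, and they were picked after their values were seen. Krt18, the usual partner of Krt8, had 0 to 3 reads per sample, whereas Krt8 had 11691 to 24040. Foxm1, a transcription factor of mitotic genes, had 0 to 4 reads per sample, and Rbx1, the RING subunit of cullin ligases, had 10 to 19. Such counts allow no comparison between the groups for Krt18 and Foxm1. Their reads were not traced further, since the counts start after mapping.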
